A study of Homo sapiens with 32 samples.

Results

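The AP-1 and immediate early factors described here are 10 genes, FOS, FOSB, FOSL1, FOSL2, JUN, JUNB, JUND, ATF3, EGR1 and MAFF. They were taken by gene symbol from 60107 genes counted in 32 RNA libraries made from THP-1, a monocytic line from a human leukemia. All 10 were among the 12402 genes that had a mean of at least 10 normalised counts over the libraries and were tested. The study asked how ACLY affects inflammatory gene expression. ACLY, ATP-citrate lyase, makes acetyl-CoA from citrate. The 4 lines that were compared all carry the ACLY knockout. KO cells have the knockout, and WT, H760A and S455A cells are knockout cells that were transduced with a lentivirus for wild-type ACLY, for a catalytically inactive enzyme or for an enzyme that cannot be phosphorylated at serine 455. The constructs were expressed from an EF promoter under puromycin selection. Whether KO cells received a vector is not given in the sources used here. Each line was left untreated or treated with LPS, the endotoxin of gram-negative bacteria, which signals through TLR4, at 100 ng/ml for 3 hours according to the labels. The study's methods give a lower concentration in 1 place. There were 4 libraries in each of the 8 groups. Every genotype is 1 line and the labels do not say whether the libraries of a group came from separate cultures, while the study speaks of independent experiments without giving the number for the sequencing. The p-values measure the spread between these libraries, and the genotype cannot be told apart from any other difference between the lines.

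AP-1 is a dimer of basic leucine zipper proteins, one from the Jun family (JUN, JUNB, JUND) and one from the Fos family (FOS, FOSB, FOSL1, FOSL2) or the ATF family. FOS, JUNB and EGR1 are immediate early genes, which are transcribed without new protein synthesis when kinases of the MAPK pathways are activated, and many of their mRNAs decay quickly. In monocytes and macrophages, signalling from TLR4 activates these kinases, and AP-1 acts with NF-kB on cytokine genes. ATF3 is a stress-induced leucine zipper factor known to restrain cytokine genes, EGR1 is a zinc finger factor, and MAFF is a small Maf protein without an activation domain of its own.

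Promoter sequence is shown for JUN, ATF3, EGR1 and FOS, because the first 3 of these genes had higher counts in KO than in WT cells after LPS while FOS did not pass the test in any comparison. FOSL2 was also called higher in KO cells after LPS. Its window lies inside the annotated gene, held none of the 6 motifs described below and is not printed. The stretches lie before the first annotated exon base of each gene and end at or just before the transcription start, except for ATF3, where other transcripts start earlier. They were read from RefSeq windows of 250 bases before the start on GRCh38.p14, written 5′ to 3′ on the strand of the gene, and capitals mark every match to 6 motifs searched on both strands. JUN is at chr1:58784049-58784297 on the minus strand, ATF3 at chr1:212565157-212565333, EGR1 at chr5:138465229-138465478 and FOS at chr14:75278578-75278825, the last 3 on the plus strand.
JUN: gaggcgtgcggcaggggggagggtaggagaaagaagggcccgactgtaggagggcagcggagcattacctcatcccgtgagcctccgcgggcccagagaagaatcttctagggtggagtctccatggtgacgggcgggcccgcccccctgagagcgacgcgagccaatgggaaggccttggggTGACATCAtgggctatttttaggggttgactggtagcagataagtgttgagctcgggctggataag
ATF3: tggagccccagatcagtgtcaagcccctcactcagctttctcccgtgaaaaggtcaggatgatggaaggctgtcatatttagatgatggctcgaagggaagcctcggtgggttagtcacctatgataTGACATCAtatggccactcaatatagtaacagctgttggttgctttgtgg
EGR1: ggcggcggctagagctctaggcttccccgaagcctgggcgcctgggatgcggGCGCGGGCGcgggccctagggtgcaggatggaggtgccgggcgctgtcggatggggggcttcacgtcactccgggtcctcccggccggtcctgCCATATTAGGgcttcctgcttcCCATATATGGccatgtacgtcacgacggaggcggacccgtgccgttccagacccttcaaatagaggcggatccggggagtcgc
FOS: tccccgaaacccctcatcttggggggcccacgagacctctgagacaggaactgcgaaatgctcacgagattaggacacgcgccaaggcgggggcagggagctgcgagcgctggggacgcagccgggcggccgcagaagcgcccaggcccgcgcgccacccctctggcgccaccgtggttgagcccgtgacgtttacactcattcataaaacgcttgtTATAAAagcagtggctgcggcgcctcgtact

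JUN and ATF3 held the same 8 bases, TGACATCA, beginning 67 and 123 bases before the start. These bases match TGANNTCA, the 8-base form bound by Jun and ATF proteins, which was found in 10.1% of 34941 windows of this length. JUND held a match 200 and another 54 bases before its start, and the first of 2 MAFF windows held one 54 bases before its start. EGR1 held 2 CArG boxes, the motif bound by serum response factor, 105 and 83 bases before its start, where 1.16% of all windows held any, and a GCGNGGGCG match, the motif bound by EGR1 itself, which 8.38% of windows held. FOS, FOSB and JUNB held TATAAA between 33 and 30 bases before the start, and so did the second ATF3 window 230 bases before its start (10.8% of windows). The second MAFF window held an NF-kB motif (5.20% of windows). No window of these genes held the 7-base AP-1 motif TGANTCA, found in 6.59% of windows, and the FOSL2 window held none of the 6 motifs. RefSeq windows matched 9 of the 10 genes, all but FOSL1. No match of a motif overlapped with a match of another in these windows, and a match describes the letters, not binding.

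Libraries were sequenced to 6504099 to 14750815 reads on genes. The deposited values are counts normalised by the authors in each line separately. They were brought to 1 scale for all 32 libraries, and every level below is a normalised count on that scale, without correction for length, since the assay reads the 3′ end of each transcript once. All 12 monocytic marker genes had reads in every group, while the lymphoid gene CD3E and the kidney gene PAX2 had 0 reads in all libraries and the epithelial gene EPCAM had 2. The summed level of 6 lymphoid markers ran from 5.93 to 87.7 normalised counts over all libraries, that of 6 epithelial or embryonic kidney markers from 54.0 to 468 and that of 4 erythroid or megakaryocyte markers from 0 to 10.5, against 18806 to 77352 for the monocytic markers. The ACLY mRNA was at 90.6 to 117 normalised counts in WT and 67.2 to 107 in KO cells without LPS, and it was not called in any comparison. Reads at the 3′ end need not cover the edited bases or the constructs, so this level checks neither. The libraries differed in how many genes were detected at an equal depth of 6504099 reads. Replicate 1 of S455A cells with LPS stood apart with 13293 genes, against 17007 to 17349 in the other 3 libraries of its group.

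JUN (chr1:58776845-58784048, minus strand), a Jun protein that dimerises with Fos proteins, had more counts after LPS in each of the 4 lines and was highest in KO cells. In WT cells JUN was at 462, 576, 408 and 396 normalised counts without LPS and at 786, 1119, 853 and 714 after LPS (replicates 1 to 4). The KO libraries were at 635, 787, 494 and 583 without LPS and at 1658, 1622, 1431 and 1162 after it. The groups with and without LPS did not overlap in either line. H760A cells had 452, 391, 482 and 412 normalised counts without LPS and 901, 1092, 1086 and 822 after LPS. S455A cells had 444, 637, 529 and 401 without LPS and 894, 1130, 1049 and 884 after LPS, again with no overlap in either line. On the log2 scale JUN rose with LPS by 0.91 ± 0.17 (SE) in WT (adjusted p = 4.98e-03), 1.24 ± 0.17 in KO (3.10e-05), 1.16 ± 0.17 in H760A (1.22e-04) and 0.99 ± 0.17 in S455A cells (1.03e-03). These adjusted p-values, and all others given, come from a limma fit across all genes with Benjamini-Hochberg adjustment, with n = 4 libraries per group, and a gene was called at an adjusted p below 0.01. The share of all genes whose groups did not overlap was not counted, here or below. With LPS, 1.62% of all tested genes in WT and 5.43% in KO cells had an unadjusted limma p below 0.05. The shares were 4.75% in H760A and 9.87% in S455A cells. The call in WT cells was lost without replicates 1, 3 or 4 of untreated WT cells or replicates 1, 2 or 3 of WT cells with LPS, left out in turn, where the adjusted p reached at most 0.0572 and the log2 fold change stayed between 0.78 and 0.95.

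JUNB, an immediate early Jun protein, and JUND, a Jun protein that most resting cells express, were spread widely within groups and passed no test in the fit of all 8 groups. JUNB in WT cells was at 585, 581, 151 and 457 normalised counts without LPS and at 663, 584, 240 and 515 after LPS. In KO cells it was at 792, 680, 132 and 724 without LPS and at 1183, 1264, 290 and 1060 after LPS. Replicate 3 was the lowest in all 4 of these groups. JUND went the other way, with 837, 1091, 1599 and 964 normalised counts in WT cells and 928, 884, 2031 and 995 in KO cells without LPS, so that replicate 3 was the highest in both. In S455A cells with LPS, replicate 1 had 22.0 normalised counts of JUNB against 569 to 636 in the other 3 libraries, and 5141 of JUND against 790 to 1036. JUNB in the remaining groups ran from 151 to 508 in H760A and 193 to 507 in S455A cells without LPS and from 209 to 786 in H760A cells with LPS. The log2 fold change of JUNB with LPS was 0.26 ± 0.77 in WT, 0.79 ± 0.77 in KO, 0.73 ± 0.77 in H760A and -0.22 ± 0.77 in S455A cells, and that of JUND lay between -0.26 and 0.40. In S455A cells both turned without replicate 1 with LPS, to 0.96 for JUNB and -0.23 for JUND. JUNB also turned without replicate 3 of untreated S455A (0.02) or untreated WT cells (-0.20), and JUND without replicate 3 of untreated WT (0.04) or untreated KO cells (0.15). In a fit of the WT and KO libraries alone with the replicate number as a block, an alternative chosen after seeing the data, JUNB passed with LPS in KO cells (log2 fold change 0.79, adjusted p = 4.33e-03) and in KO against WT cells after LPS (0.81, adjusted p = 7.46e-04).

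Across the deviations of the 32 libraries from their group means, the log2 levels of JUNB and JUND had a Pearson r of -0.89. The same deviations of JUNB had r = 0.90 with the number of genes detected at equal depth, FOSL1 0.85 and MAFF 0.72, while JUND had r = -0.91. Over all tested genes this r had its 5th and 95th percentiles at -0.84 and 0.88, so many genes moved with the number of genes detected. For ATF3 it was -0.10 and for JUN 0.21. The within-group SD on the log2 scale was 1.18 for JUNB, 1.14 for FOSL1, 1.03 for MAFF and 0.61 for JUND, against 0.28 for ATF3, 0.24 for JUN and a median of 0.42 over all tested genes. The libraries share depth and preparation with the count they are compared with, and the part of detected genes in these differences was not tested.

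**Figure D1:**
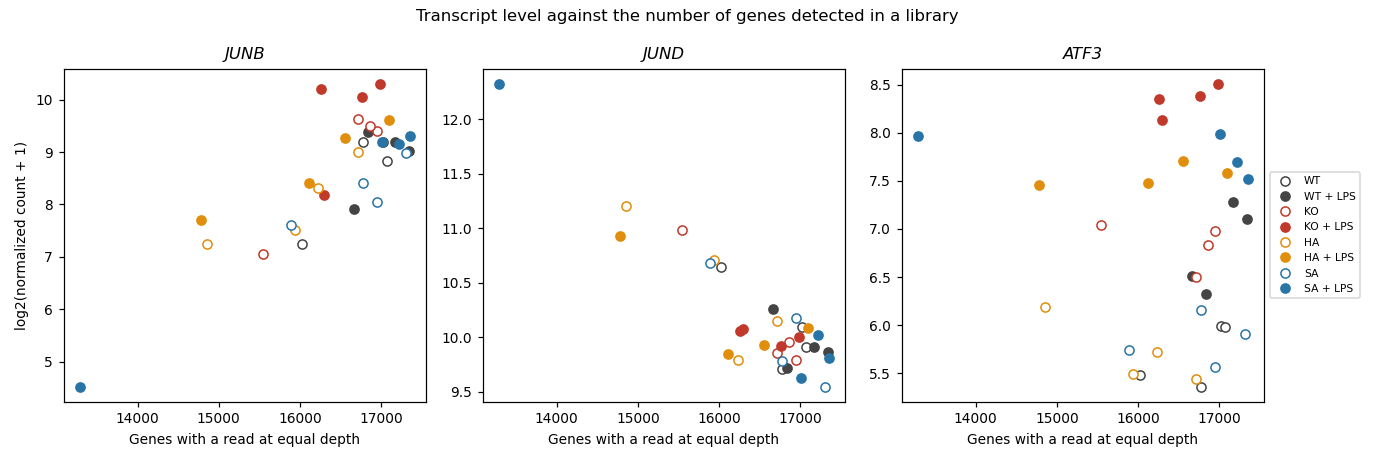
Log2(normalised count + 1) of JUNB, JUND and ATF3 in each of the 32 libraries (points) against the number of genes with at least 1 read after thinning to 6504099 reads. Open points are untreated and filled points LPS-treated libraries, HA stands for H760A and SA for S455A. JUNB is lower and JUND higher in libraries with few genes, with replicate 1 of S455A cells with LPS at 13293 genes at the far left, while ATF3 separates by group.

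FOS (chr14:75278826-75282230, plus strand), the founding Fos protein, did not pass the test after 3 hours of LPS in any line. In WT cells FOS was at 85.9, 123, 67.1 and 85.8 normalised counts without LPS and at 89.8, 120, 56.2 and 74.5 after LPS. In KO cells it was at 130, 164, 148 and 103 without LPS and at 237, 233, 109 and 67.3 after LPS, where replicates 1 and 2 were more than 2 times as high as replicates 3 and 4. The groups with and without LPS overlapped in all 4 lines. The log2 fold change with LPS was -0.11 ± 0.42 in WT (95% interval -0.98 to 0.76), 0.08 ± 0.42 in KO, -0.28 ± 0.42 in H760A and 0.50 ± 0.42 in S455A cells. With single libraries left out, the value reached 0.07 in WT, -0.17 in KO and 0.02 in H760A cells, so its sign in these 3 lines rested on 1 library. H760A cells ranged from 30.8 to 174 without LPS and from 50.5 to 140 after it, and S455A cells from 51.9 to 109 and from 85.9 to 158.

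FOSL2 (chr2:28392448-28417317, plus strand), a Fos-related antigen, differed between lines rather than with LPS. It was at 222, 223, 163 and 192 normalised counts in WT cells and at 467, 339, 323 and 318 in KO cells without LPS. After LPS, FOSL2 was at 262, 199, 173 and 194 in WT cells and at 671, 461, 285 and 412 in KO cells. Every KO library was above every WT library of the same treatment. In KO against WT cells, 14.3% of all tested genes without LPS and 17.3% after LPS had an unadjusted limma p below 0.05. The difference KO minus WT was 1.09 ± 0.25 on the log2 scale after LPS (2.13-fold, adjusted p = 4.37e-03) and was not called without LPS (0.84 ± 0.25, adjusted p = 0.0415). With the replicate number as a block it was called without LPS too, with an adjusted p of 4.70e-03. The call after LPS was lost without replicate 2, 3 or 4 of WT cells or replicate 1 or 2 of KO cells with LPS, left out in turn (adjusted p at most 0.0376, log2 fold change at least 0.88). The change of FOSL2 with LPS lay between 0.04 and 0.29 in the 4 lines. FOSL2 had 179 to 281 normalised counts in H760A and 146 to 231 in S455A cells without LPS. After LPS it had 260 to 273 in H760A cells and 182 to 198 in S455A replicates 2 to 4, with 444 in replicate 1.

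FOSB, a Fos protein of low abundance here, and FOSL1, the other Fos-related antigen, passed no test. FOSB ran from 2.99 to 57.8 normalised counts over all libraries, and its fewest reads in a library were 2. Without LPS, every H760A library (19.3 ± 2.86, SD) was above every WT library (8.52 ± 4.56), with a log2 difference of 1.23 ± 0.63 and an adjusted p of 0.223. In that comparison 24.6% of all tested genes had an unadjusted limma p below 0.05, and the share of genes without overlap was not counted. FOSL1 was at 63.0, 33.5, 25.7 and 42.0 normalised counts in WT cells without LPS and 52.4, 75.4, 51.6 and 71.4 after LPS. In the other lines FOSL1 ran from 21.6 to 103 except in replicate 1 of S455A cells with LPS, where no read was counted. A count of 0 is compatible with up to 3 reads, which bounds counting error only. Its log2 fold change with LPS was 0.65 ± 0.76 in WT, 0.34 ± 0.76 in KO, -0.53 ± 0.76 in H760A and -1.03 ± 0.76 in S455A cells. Without replicate 1 of S455A cells with LPS the value in that line turned to 0.42, and without replicate 3 of untreated KO cells that in KO turned to -0.13.

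ATF3 (chr1:212565334-212620777, plus strand) was the member with the smallest adjusted p in KO against WT cells, and it rose with LPS in all 4 lines. Without LPS it was at 40.1, 62.8, 43.6 and 62.1 normalised counts in WT cells and at 89.8, 125, 131 and 113 in KO cells. After LPS, WT cells had 79.3, 154, 90.2 and 136 normalised counts and KO cells 325, 364, 280 and 334. Every KO library was above every WT library of the same treatment, and KO cells without LPS overlapped with WT cells after LPS. H760A cells had 72.2, 43.9, 51.9 and 42.3 without LPS and 175, 208, 177 and 190 after it. S455A cells had 52.5, 70.5, 59.2 and 46.2 without LPS and 249, 206, 253 and 183 after LPS. Without LPS the H760A and S455A libraries overlapped with WT, and after LPS every library of both lines was above every WT library. After LPS, 16.7% of all tested genes in H760A and 5.18% in S455A against WT cells had an unadjusted limma p below 0.05.

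ATF3 rose with LPS by 1.10 ± 0.21 on the log2 scale in WT cells (2.15-fold, adjusted p = 7.49e-03), 1.51 ± 0.21 in KO (2.84-fold, 4.86e-05), 1.85 ± 0.21 in H760A (3.60-fold, 3.01e-06) and 1.95 ± 0.21 in S455A cells (3.86-fold, 7.42e-07). The rise in WT cells was no longer called without any one of replicates 1, 2 and 3 of untreated WT cells or replicates 2, 3 and 4 of WT cells with LPS, with adjusted p-values up to 0.0765 and log2 fold changes of 0.94 to 1.20. KO cells exceeded WT cells by 1.14 ± 0.21 without LPS (2.20-fold, adjusted p = 7.79e-04) and by 1.54 ± 0.21 after LPS (2.91-fold, adjusted p = 1.15e-05), and both calls held without each of 8 libraries in turn. In a fit of the WT and KO libraries without LPS alone, the first was not called (adjusted p = 0.0269). KO cells also exceeded H760A cells without LPS by 1.13 ± 0.21 (adjusted p = 6.81e-03), a call that was lost in a fit of the 2 groups alone (adjusted p = 0.235), on the deposited scale, with no filter and with voom. It held with 1 of 8 libraries left out, replicate 1 of untreated H760A cells, and had an adjusted p of up to 0.0462 without any one of the others. After LPS the excess over H760A cells was 0.79 ± 0.21 and was not called (adjusted p = 0.124). H760A cells were at 0.01 ± 0.21 relative to WT without LPS and 0.75 ± 0.21 after LPS (adjusted p = 0.0409). S455A cells were at 0.14 ± 0.21 without LPS and 0.99 ± 0.21 after LPS (adjusted p = 0.521, where no gene of 12402 was called). On the deposited scale, which is shifted by 0.15 on the log2 scale for H760A relative to WT, the difference of H760A from WT cells after LPS was 0.91 and was called (adjusted p = 8.60e-03).

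The order of ATF3 group means was KO with LPS (326 ± 34.6, SD), S455A with LPS (223 ± 33.9), H760A with LPS (188 ± 15.2), WT with LPS (115 ± 36.0), KO (115 ± 18.2), S455A (57.1 ± 10.4), H760A (52.6 ± 13.7) and WT (52.2 ± 12.0). The ranges of neighbours in this order did not overlap between KO and S455A cells with LPS, between H760A and WT cells with LPS, and between KO and S455A cells without LPS. All other neighbours overlapped. For JUN the order was KO with LPS (1468 ± 227), S455A with LPS (989 ± 120), H760A with LPS (975 ± 135), WT with LPS (868 ± 177), KO (625 ± 123), S455A (502 ± 104), WT (461 ± 82.1) and H760A (434 ± 40.7). KO cells with LPS were apart from the next group and all other neighbours overlapped.

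MAFF (chr22:38200767-38216507, plus strand) had the largest log2 difference of the 10 genes between KO and WT cells but did not pass the test. It was at 11.5, 5.02, 1.12 and 11.4 normalised counts in WT and at 39.8, 30.7, 20.2 and 35.0 in KO cells without LPS. After LPS it was at 23.9, 24.3, 4.69 and 16.7 in WT and at 104, 118, 44.5 and 49.3 in KO cells. The KO and WT libraries did not overlap at either treatment, and replicate 3 was the lowest in all 4 of these groups. KO minus WT was 2.24 ± 0.70 without LPS (adjusted p = 0.0652) and 2.20 ± 0.70 after LPS (adjusted p = 0.0598). In the fit of WT and KO libraries alone with the replicate block, both differences were called (adjusted p = 3.00e-04 and 3.09e-04). MAFF had as few as 1 read in a WT library, and without the library of each group that had the fewest genes, an alternative chosen after seeing the data, the difference without LPS was 1.88 and was called (adjusted p = 2.57e-03). H760A cells had 9.15 to 17.7 normalised counts without LPS and 17.4 to 37.5 after it. S455A cells had 0.625 to 14.3 and 1.16 to 29.5, with replicate 1 the lowest in both groups.

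**Figure D2:**
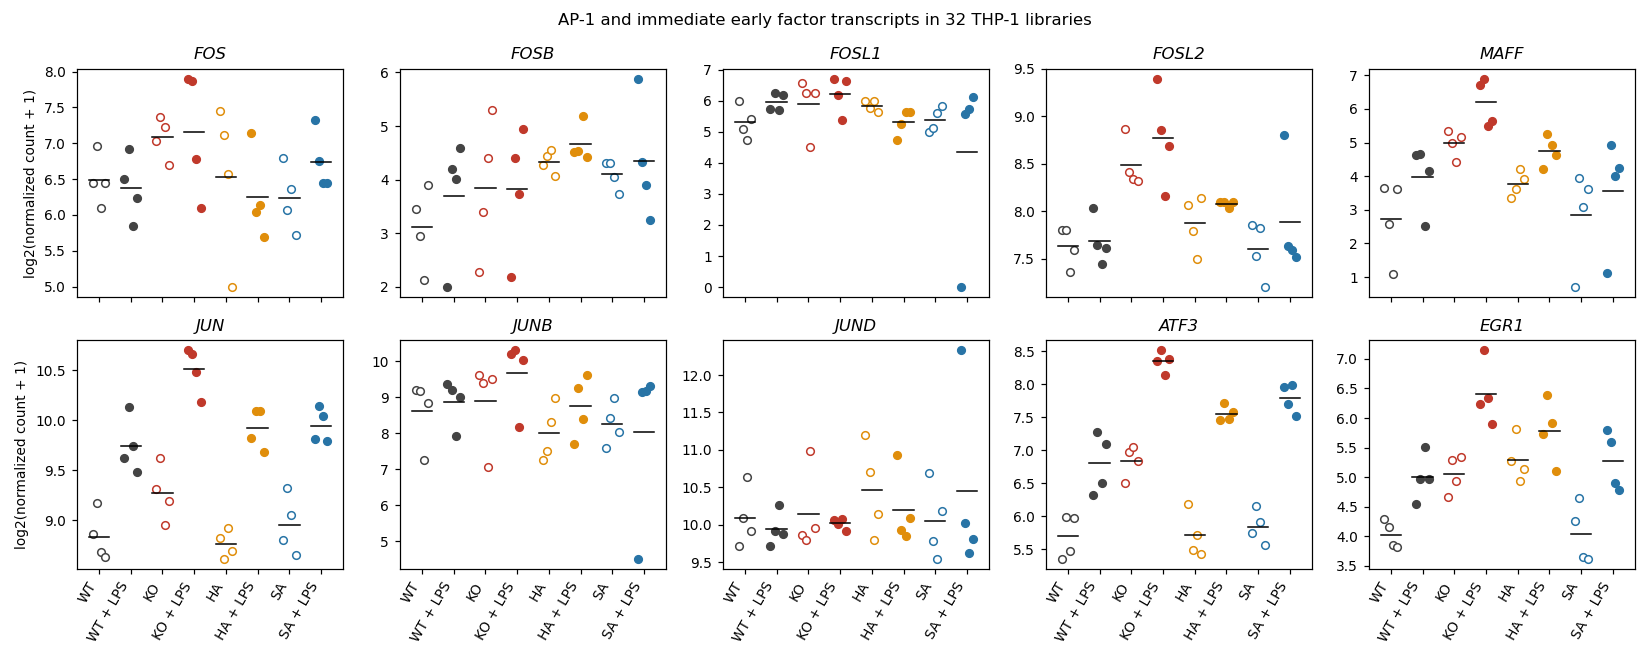
Log2(normalised count + 1) of the 10 genes in 4 libraries of each of 8 groups (points in order of replicate number, open without and filled with LPS) with the mean of each group as a bar, HA standing for H760A and SA for S455A. ATF3 and JUN are highest in the 4 KO libraries with LPS (280 to 364 and 1162 to 1658 normalised counts), while JUNB, FOSL1 and MAFF have single low libraries within groups.

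EGR1 (chr5:138465479-138469303, plus strand), the zinc finger immediate early factor, was low and was higher in KO than in WT cells after LPS. Without LPS it was at 18.6, 16.7, 13.4 and 13.1 normalised counts in WT, 24.4, 38.1, 29.7 and 39.6 in KO and 37.6, 55.1, 29.5 and 34.4 in H760A cells. S455A cells had 18.1, 24.1, 11.5 and 11.3, which overlapped with WT, while every KO and H760A library was above every WT library. After LPS EGR1 was at 22.4, 30.3, 44.5 and 30.1 in WT and at 74.7, 140, 80.3 and 58.7 in KO cells, again without overlap. H760A cells with LPS had 52.2, 83.2, 59.4 and 33.4 and S455A cells with LPS 54.4, 47.5, 29.0 and 26.5, and both overlapped with WT cells. KO minus WT was 1.41 ± 0.32 after LPS (2.66-fold, adjusted p = 5.29e-03) and 1.03 ± 0.32 without LPS (adjusted p = 0.0651). The call after LPS was lost without replicate 1, 2 or 4 of WT cells or replicate 1, 2 or 3 of KO cells with LPS, left out in turn (adjusted p at most 0.0393, log2 fold change at least 1.16). H760A minus WT was 1.26 ± 0.32 without LPS and was not called (adjusted p = 0.0167), although it was on the deposited scale (adjusted p = 5.78e-03) and with the replicate block (4.71e-03). EGR1 in all LPS-treated groups but H760A was above its untreated group in every library, and the change with LPS was 0.97 ± 0.32 in WT (adjusted p = 0.786), 1.35 ± 0.32 in KO (0.0327), 0.50 ± 0.32 in H760A (0.995) and 1.23 ± 0.32 in S455A cells (0.0802). With the replicate block the change in KO cells was called (adjusted p = 7.85e-03). Its fewest reads in a library were 12.

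The order of EGR1 means was KO with LPS (88.5 ± 35.7), H760A with LPS (57.0 ± 20.6), S455A with LPS (39.3 ± 13.7), H760A (39.1 ± 11.1), KO (32.9 ± 7.18), WT with LPS (31.9 ± 9.21), S455A (16.3 ± 6.11) and WT (15.5 ± 2.65). The ranges of all neighbours in this order overlapped.

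JUN and ATF3 were the 2 of 10 genes called with LPS in each of the 4 lines in the fit of all 8 groups. In fits of the 2 groups compared alone, neither was called in WT (adjusted p = 0.0973 for JUN and 0.332 for ATF3) or in S455A cells (0.139 and 0.0137), and JUN was not called in KO cells (0.0240). With no filter on low counts neither was called in WT cells (0.0103 and 0.0153), and without the library of each group that had the fewest genes the values there were 0.0558 and 0.0218. With voom on the recovered reads, ATF3 was not called in WT cells (0.0273). Over all 12402 tested genes, 31 (0.25%) were called in WT, 72 (0.581%) in KO, 50 (0.403%) in H760A and 61 (0.492%) in S455A cells. Across the 10 genes the log2 fold changes had a median of 0.62 in WT, 0.56 in KO, 0.42 in H760A and 0.45 in S455A cells, against medians between -0.02 and 0.02 over all tested genes. The remaining 8 genes did not pass in any line in the fit of all 8 groups without the block. With the replicate block EGR1 was called in KO cells. In the fit of the WT and KO libraries alone with that block, both EGR1 and JUNB were called in KO cells. Of 5 genes used to check the LPS labels (TNF, IL1B, NFKBIA, TNFAIP3 and CXCL8) all had positive log2 fold changes in every line, with medians of 0.64 in WT, 1.35 in KO, 1.38 in H760A and 1.31 in S455A cells, and 0, 1, 2 and 2 of them were called. The difference between the LPS responses of each line and WT cells was tested directly, and none of the 10 genes was called. In limma, 1 gene of 12402 (0.00806%) was called for KO and 0 for H760A and S455A cells, where 141 and 457 genes had an unadjusted p below 0.05, and voom on the recovered reads, an alternative chosen after seeing the data, likewise called 0. The response of ATF3 exceeded that of WT cells by 0.41 in KO (95% interval -0.21 to 1.02), 0.74 in H760A (0.13 to 1.36, adjusted p = 1.00) and 0.85 in S455A cells (0.23 to 1.47, adjusted p = 0.998). For JUN the difference was 0.33 in KO (-0.16 to 0.82), 0.25 in H760A (-0.24 to 0.74) and 0.08 in S455A cells (-0.41 to 0.58).

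**Figure D3:**
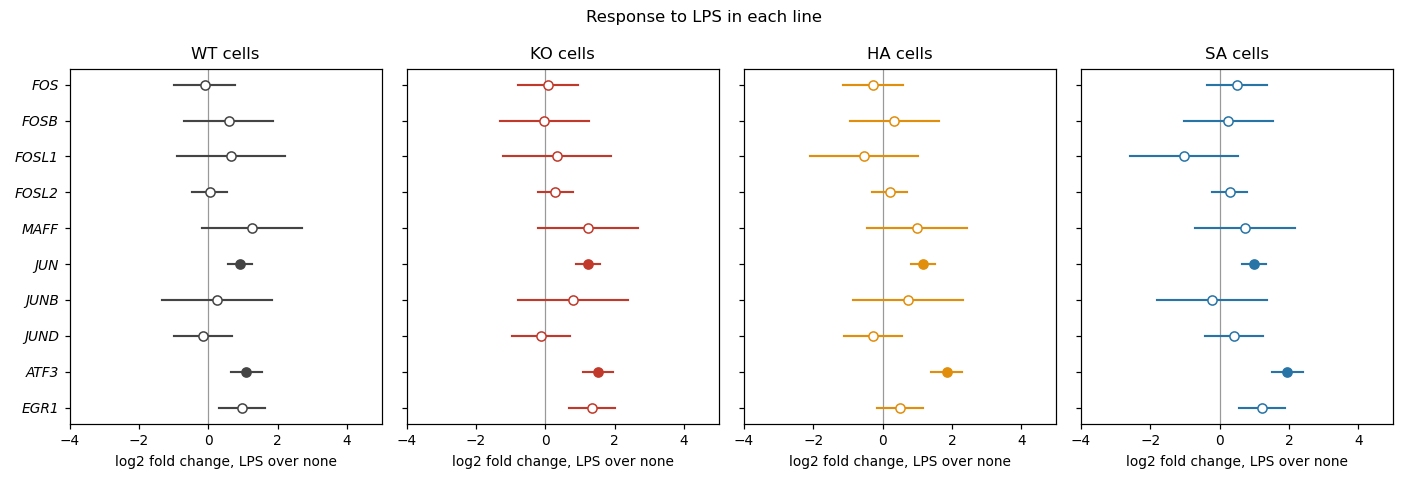
Log2 fold change with LPS (points) and 95% interval (lines) of the 10 genes in WT, KO, H760A (HA) and S455A (SA) cells, with genes called at an adjusted p below 0.01 filled. JUN (0.91 to 1.24) and ATF3 (1.10 to 1.95) are filled in each line, and the intervals of FOS include 0 in all 4.

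After LPS, 4 of the 10 genes (ATF3, EGR1, FOSL2 and JUN) were called higher in KO than in WT cells and none lower, where 2.14% of all tested genes were called higher and 3.48% in either direction. Without LPS, ATF3 was the 1 gene called, where 1.81% of all genes were called higher and 2.92% in either direction. All 10 genes had a positive log2 difference at both treatments, from 0.06 to 2.24 without LPS and from 0.07 to 2.20 after LPS, with medians of 0.67 and 0.80, against -0.03 and -0.01 over all tested genes. With single libraries left out, JUNB reached -0.17 and JUND -0.22 without LPS, and FOSB reached -0.45 after LPS. The sign of each of these differences rested on 1 library. JUN was at 0.43 ± 0.17 without LPS (adjusted p = 0.185) and at 0.77 ± 0.17 after LPS (1.70-fold, adjusted p = 3.95e-03). The JUN call after LPS was lost without replicate 1, 3 or 4 of WT cells or replicate 1 or 2 of KO cells with LPS, left out in turn (adjusted p at most 0.0264), and on the deposited scale (0.67, adjusted p = 0.0119). In a fit of the 2 groups alone, JUN (adjusted p = 0.0324), FOSL2 (0.0333) and EGR1 (0.0298) were not called after LPS, and EGR1 was not called with no filter (0.0148). Without the library of each group that had the fewest genes, JUN (0.0232) and FOSL2 (0.0105) were not called. In the fit of the WT and KO libraries alone with the replicate block, 4 of the genes were called without LPS (ATF3, FOSL2, JUN and MAFF) and 6 after LPS (the 4 genes above with JUNB and MAFF). That fit called 1155 and 1512 of all genes in place of 362 and 431. Some markers of the monocytic lineage differed in the same contrast. Of 12 markers, 8 had a positive and 4 a negative log2 difference at both treatments. LYZ (1.89 ± 0.34) and CD14 (1.66 ± 0.26) were called higher in KO than in WT cells without LPS. After LPS, LYZ was called higher (2.29 ± 0.34) and CD33 lower (-0.73 ± 0.16). Means of LYZ and ITGB2 without LPS were 18560 and 28077 normalised counts in KO and 4849 and 20985 in WT cells. The summed level of the 12 markers was 31872 to 77352 normalised counts in KO and 22142 to 49475 in WT libraries without LPS and 34391 to 73826 against 22202 to 49775 after LPS, and the part of this difference in the result was not tested.

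In H760A and S455A cells none of the 10 genes was called against WT at either treatment. The share of all genes called was 2.52% without and 2.02% after LPS for H760A cells and 0% at both for S455A cells, where limma gave 447 and 643 genes with an unadjusted p below 0.05 and voom on the recovered reads called 0. The medians of the 10 genes were 0.30 and 0.33 in H760A and 0.04 and 0.24 in S455A cells. In KO against H760A cells, ATF3 was the 1 gene called without LPS (0.226% of all genes in either direction) and none was called after LPS (0.00806%). After LPS, the KO libraries were all above the H760A libraries for ATF3, JUN (0.59 ± 0.17, adjusted p = 0.177), FOSL2 (0.69 ± 0.25, adjusted p = 0.278) and MAFF (1.43 ± 0.70, adjusted p = 0.477). In that comparison 1308 of all tested genes (10.5%) had an unadjusted limma p below 0.05. The share of all genes without overlap was not counted. The comparisons with WT cells share the WT libraries, and those between treatments and between lines share libraries too. In bulk RNA, fewer cells expressing a gene and less RNA per cell cannot be told apart.

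**Figure D4:**
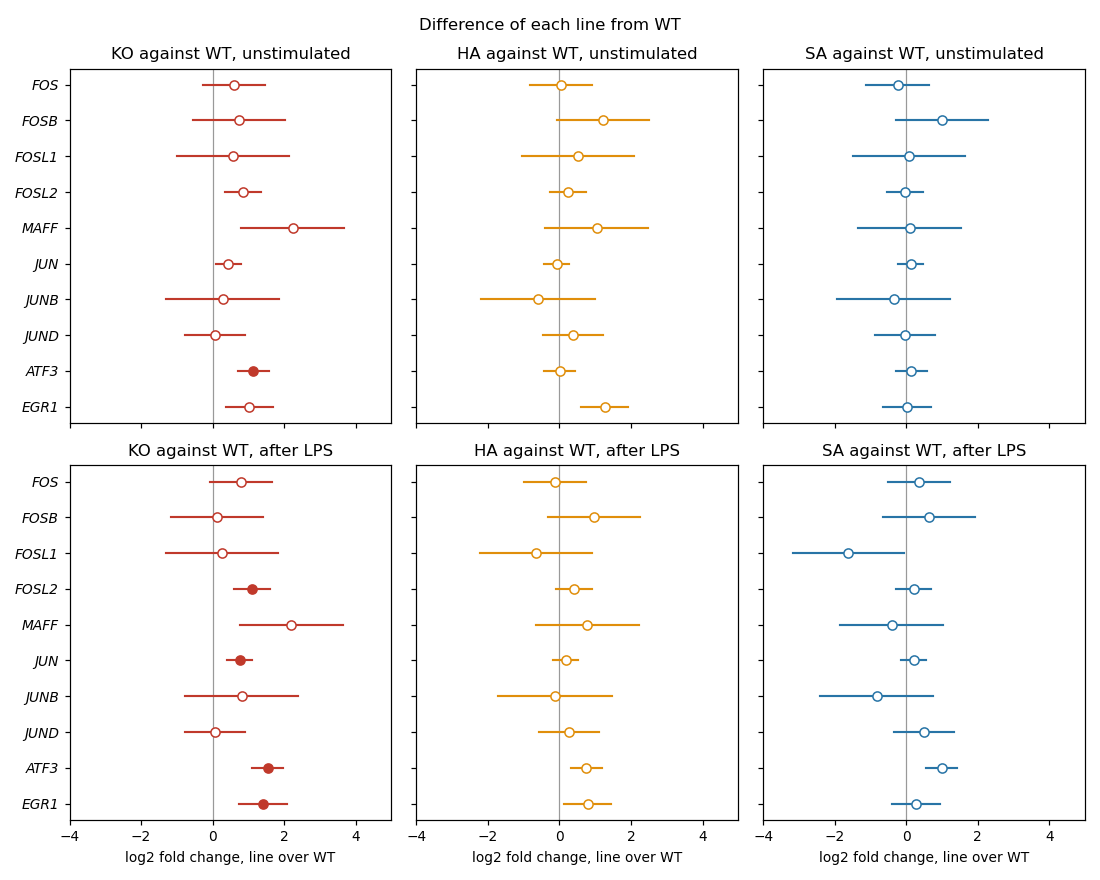
Log2 difference from WT cells (points) with 95% interval (lines) for the 10 genes in KO, H760A (HA) and S455A (SA) cells, without LPS in the upper and after LPS in the lower panels, with genes called at an adjusted p below 0.01 filled. ATF3 is filled for KO cells at both treatments and EGR1, FOSL2 and JUN after LPS, and no gene is filled for H760A or S455A cells.

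Of 13 other leucine zipper factors related to AP-1, 12 were tested. BATF2, an interferon-responsive BATF factor, was higher in KO than in WT cells, by 2.77 ± 0.48 on the log2 scale without LPS and by 1.98 ± 0.48 after LPS. MAF was higher in KO cells without LPS (1.68 ± 0.34) and was at 1.37 ± 0.34 after LPS, where it was not called (adjusted p = 0.0103). BATF3, known for its role in dendritic cells, was lower in KO cells, at -1.10 ± 0.23 without and -1.06 ± 0.23 after LPS. None of these 3 genes was called with LPS in any line, or in H760A or S455A against WT cells.

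Of 24 other immediate early genes 16 were tested, and CSRNP1, a cysteine- and serine-rich nuclear protein, was called with LPS in WT (1.21 ± 0.19), KO (1.07), H760A (1.26) and S455A cells (0.95). IER3 was called as well in H760A cells (1.73 ± 0.30). CSRNP1 was also the 1 gene of this list called in KO against WT cells, at 1.18 ± 0.19 without and 1.04 ± 0.19 after LPS, and in H760A against WT cells, at 0.80 and 0.85. Over all tested genes, 0.25% to 0.581% were called with LPS in a line. The shares without and after LPS were 2.92% and 3.48% in KO and 2.52% and 2.02% in H760A against WT cells. None of 24 kinases and serum response factors upstream of AP-1 and EGR1 was called in any of the 15 comparisons, with medians between -0.09 and 0.22. None of 8 tested heat shock genes was called either, and their medians lay between -0.27 and 0.20. Over all tested genes the share called was 0% to 3.48%, so few or no calls are common in lists of this size. Of the 24 upstream genes, 7 had an unadjusted limma p below 0.05 in H760A against WT cells without LPS. In that comparison 24.6% of all tested genes had one.

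Of 22 known target genes of AP-1 or EGR1, 17 were tested. With LPS, none was called in WT, 3 in KO (PTGS2 1.94 ± 0.40, ICAM1 1.65 ± 0.32 and TNF 1.02 ± 0.15), 2 in H760A (IL1B 2.54 ± 0.38 and TNF 0.95 ± 0.15) and 3 in S455A cells (IL1B 2.65 ± 0.38, ICAM1 1.71 ± 0.32 and TNF 0.97 ± 0.15). Of all tested genes, 0.25% were called with LPS in WT, 0.581% in KO, 0.403% in H760A and 0.492% in S455A cells. TNF and IL1B encode cytokines, ICAM1 an adhesion molecule and PTGS2 the inducible cyclooxygenase. TNF and IL1B are also among the genes used to check the LPS labels, so their calls with LPS are those already counted there. In KO against WT cells, the cell cycle inhibitor CDKN1A and TNF were higher without LPS (1.44 ± 0.21 and 0.67 ± 0.15) and IL1B, TNF and CDKN1A after LPS (1.93 ± 0.38, 1.06 ± 0.15 and 0.86 ± 0.21), with a list median of 0.91 after LPS against -0.01 over all genes. In H760A against WT cells, CDKN1A was higher without LPS (1.04 ± 0.21), TNF was higher after LPS (0.79 ± 0.15) and MMP9, a matrix protease, was lower at both treatments (-0.97 and -1.32). Of all tested genes, 2.92% without and 3.48% after LPS were called in KO against WT cells. In H760A against WT cells these shares were 2.52% and 2.02%. The lists were written with earlier results of these data known, and their counts are descriptions.

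Over the 32 libraries, the tested gene whose log2 level had the highest Pearson r with ATF3 was CXCL11 (0.94) and that with EGR1 was IL10RA (0.89). For FOSL2 it was TRIM22 (0.85) and for MAFF TAP1 (0.90). JUNB was closest to MANBA (0.97), JUND to GAPDH (0.97), FOSL1 to C3orf58 (0.92), FOS to ATG3 (0.82) and FOSB to IP6K2 (0.65). Within groups the r of ATF3 with CXCL11 was 0.37 and that of EGR1 with IL10RA 0.35, so most of their likeness lay between groups, while that of JUNB with MANBA (0.97) and of JUND with GAPDH (0.97) was as high within groups as over all libraries. The libraries share groups, depth and preparation, and each r is a description.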

How the data were processed

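RNA of 32 THP-1 libraries was sequenced with a QuantSeq 3′ kit. According to the methods, the authors used Bbduk for trimming, STAR for alignment to GRCh38, HTSeq-count for gene counts and DESeq2 for normalisation and tests. Versions, annotation release and the strand setting are not given in the sources used here, so reads of overlapping antisense genes may not be told apart. The deposited values are normalised counts (written with decimal commas), in a separate table for every line and treatment. All values above 0 (100.000%) were whole multiples of 1 number per library within 0.05 reads, which recovered the reads. The deposited factors equalled median-of-ratios factors computed in each line separately (largest difference 0.0000%), so factors were computed jointly over 11489 genes in all 32 libraries, which moved them by up to 14.3%. Of 60199 rows per table, 92 spike-in controls with 1 read in all were left out, and 3463 genes had no symbol.

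The 12402 genes with a mean of at least 10 normalised counts entered a limma fit (version 3.58.1, under R 4.3.3) of log2(normalised count + 1), with 8 group means with an expression trend, for 15 comparisons, with Benjamini-Hochberg adjustment and a limit of 0.01 as in the study. Fold changes are on the log2(normalised count + 1) scale, which understates the change of low genes. Standard errors and 95% intervals are from the fit. The fit was tested on simulated data with known changes in untreated KO libraries, with each gene drawn independently at a single dispersion. Such data hold no variation shared between genes within groups, so the test does not check calls under it. Reads ranged from 6504099 to 14750815 per library, and molecular identifiers were not counted, so counts of reads bound counting error only. Negative binomial count tests were not run, and voom was used on the recovered reads. Libraries were grouped, and numbered 1 to 4, by the labels. Deviations of same-numbered libraries from their group means correlated across genes at 0.12 to 0.72 for the 4 pairings of WT and KO groups. Each was above 0.1, while libraries with different numbers reached up to 0.43. The own number was the best match for 3 of 4 libraries for LPS in KO cells and for KO against WT cells after LPS. The numbers were taken to pair these libraries. Whether shared library quality gave these correlations was not tested. The replicate block is printed beside results where it changes a call. For H760A and S455A cells 1 or more numbers correlated below 0.1. The alternatives were the deposited scale, a pseudocount of 0.1, no filter, a fit of the compared groups alone, the replicate block and each library left out in turn, with 3 more chosen after seeing the data. The 10 genes, the gene lists and the rule for naming genes (all 10 members, up to 3 called genes with the largest changes per list and comparison, and the gene with the most similar pattern) were chosen with earlier results of these data known. A gene selected by this rule is not reported here. Positions are from GENCODE 44 on GRCh38, and promoter windows from RefSeq on GRCh38.p14.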

Additional observations from a re-analysis of the deposited data

Results flagged for a closer look

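In 9 of 80 groups of 4 libraries, a single library of a gene lay far from the other 3. For independent, normally distributed values, the criterion is met in about 1 of 20 groups, or 4 of 80. It was applied to normalised counts rather than log2 values, and the 80 groups share libraries and hold correlated genes. The counts of 9 and 4 therefore cannot be compared as a test. Replicate 1 of S455A cells with LPS accounted for 3 of the 9, with 22.0 normalised counts of JUNB (569 to 636 in the others), 5141 of JUND (790 to 1036) and 444 of FOSL2 (182 to 198). This library also had the fewest genes at equal depth, 13293 against 17007 to 17349. Replicate 3 of untreated KO cells had 132 of JUNB (680 to 792) and 2031 of JUND (884 to 995), with 15547 genes against 16710 to 16943. Replicate 1 of H760A cells with LPS had 1953 of JUND (923 to 1086), with 14785 genes against 16115 to 17097. Replicate 3 of H760A cells with LPS had 35.6 of FOSB (20.6 to 22.1) and 260 of FOSL2 (272 to 273), a difference of less than 5%. Replicate 1 of untreated KO cells had 467 of FOSL2 (318 to 339). The part of the number of detected genes in these values was not tested.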

How the results depend on the processing

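No call reversed. For the 14 calls among the 10 genes, 85 of 107 values under other settings and 77 of 112 with a library left out kept the call. The 2 planned negative binomial count tests were not run. With LPS in WT cells the 2 calls became 0 with no filter, 0 in a fit of the compared groups alone, 1 with voom, 0 without the library with fewest genes in each group and 0 to 1 with a library left out. With LPS in KO cells they became 1 in the fit of compared groups, 3 with the replicate block (EGR1 added) and 4 with that block in WT and KO libraries alone (EGR1 and JUNB), and in S455A cells 0 in the fit of compared groups. In KO against WT cells without LPS the 1 call became 0 in the fit of compared groups, 2 with the replicate block, 4 with that block in WT and KO libraries alone and 2 without the libraries with fewest genes. After LPS the 4 calls became 1 in the fit of compared groups, 2 without the libraries with fewest genes, 6 with the block in WT and KO libraries alone (JUNB and MAFF added) and 1 to 4 with a library left out. In H760A against WT cells the 0 calls became 1 without LPS on the deposited scale and with the replicate block (EGR1), and 1 after LPS on the deposited scale (ATF3). In KO against H760A cells without LPS the 1 call became 0 on the deposited scale, with no filter, in the fit of compared groups and with voom, and 0 to 1 with a library left out. The cause was not tested, beyond fewer libraries in the smaller fits. Neither fit with the replicate block changed any other call of the 10 genes.

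Over all genes, the fit of compared groups called 15 against 31 with LPS in WT, 21 against 72 in KO, 33 against 50 in H760A, 7 against 61 in S455A, 182 against 362 and 299 against 431 in KO against WT without and after LPS, 199 against 312 and 138 against 251 in H760A against WT, and 0 against 28 in KO against H760A without LPS. The block in WT and KO libraries called 72 and 231 with LPS in WT and KO. Voom called 20 with LPS in WT. The deposited scale called 503 in H760A against WT without LPS. In KO against H760A after LPS the 1 call became 60 on the deposited scale, 23 with the block, 14 with voom and 12 without the libraries with fewest genes. Without those libraries 659 (KO) and 394 and 1102 (H760A after and without LPS) were called against WT, and 129 in KO against H760A without LPS, where the block called 48.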
